A study of Homo sapiens with 6 samples.

Results

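The 35 genes described here encode aminoacyl-tRNA synthetases, the enzymes that load each tRNA with its amino acid. They were picked by symbol, as a gene family, from the 38557 genes listed in the count files. Of these, 17 serve the cytosol, 16 serve the mitochondria, and GARS1 and KARS1 supply both compartments. All 35 were present and passed the filter on low counts, 34 under the current symbol and VARS1 under its older symbol VARS. Their transcripts were counted by RNA sequencing of heart muscle cells made from WTC11, an established line of human induced pluripotent stem cells that the labels describe as wild type (WT). The cells were kept in RPMI plus B27, in which B27 is a serum-free supplement (3 libraries, replicates 1 to 3), or in DMEM plus fatty acids (3 libraries, replicates 1 to 3). The question addressed is how transcript levels differ between these backbone media. The groups differ in base medium and in supplement at once, and the effects of these cannot be told apart. All 6 libraries come from the same line, and the amino acid content of the media and the time in culture are not given in the sources used here.

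A synthetase activates its amino acid with ATP and joins it to the end of the matching tRNA, so every codon that a ribosome reads depends on one of these enzymes. For most amino acids, human cells keep separate enzymes for the tRNAs of the cytosol and for the mitochondrial tRNAs. Both kinds are encoded in the nucleus, and the mitochondrial enzymes serve the few mitochondrially made subunits of the respiratory chain, on which the heart relies heavily. Many cytosolic synthetase genes are known targets of ATF4, the transcription factor of the integrated stress and amino acid response, which binds C/EBP-ATF elements. Inherited defects of several mitochondrial synthetases, AARS2 among them, are known causes of cardiomyopathy.

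The element searched for near the start sites was TGATGNAA on both strands, a core of the C/EBP-ATF element, because ATF4 targets among the synthetases have been described through it. RefSeq windows of 300 bases (250 before and 50 after the start, build GRCh38.p14) were found for 30 of the 35 members, as 39 windows. At least 1 match lay in 6 of the 14 cytosolic genes with a window (42.9%), in GARS1 but not KARS1, and in 1 of 14 mitochondrial genes (7.14%). Across all 35116 windows of the same length 3.62% held a match, and of the 12007 tested genes with a window 2.97% did. The 8 matches are shown because they separate the members below into those with and without the element. Each is a stretch of 30 bases on the strand of its gene, with the match in capitals. A capital run that starts with TTGCATCA or TTTCATCA is the element read on the opposite strand.
CARS1 (chr11:3057407-3057436, minus strand): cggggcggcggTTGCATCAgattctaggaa
IARS1 (chr9:92293692-92293721, minus strand): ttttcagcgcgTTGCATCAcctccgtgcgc
TARS1 (chr5:33440956-33440985, plus strand): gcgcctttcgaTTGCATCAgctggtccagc
MARS1 (chr12:57488053-57488082, plus strand): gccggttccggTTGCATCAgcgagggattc
AARS1 (chr16:70289675-70289704, minus strand): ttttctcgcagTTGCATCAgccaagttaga
NARS1 (chr18:57621804-57621833, minus strand): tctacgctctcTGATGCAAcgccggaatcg
GARS1 (chr7:30594834-30594863, plus strand): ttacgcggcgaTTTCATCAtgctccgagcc
YARS2 (chr12:32756076-32756105, minus strand): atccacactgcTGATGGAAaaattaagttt

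The cytosolic matches share the letters TTGCATCA or their reverse complement, whereas GARS1 and YARS2 differ in the free base. The match begins 2 bases before the start in CARS1, 4 before it in MARS1, 13 before it in IARS1 and 33 before it in GARS1. It lies farther out, 187 and 197 bases before the start, in AARS1 and YARS2, and begins at position 3 in TARS1 and 15 in NARS1, counted from the start. These are matches of letters and were not tested for binding.

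The libraries held 23232324 to 31035389 gene counts, and the lowest count of any member in any library was 210. Libraries with the same replicate number deviated together across genes (r = 0.31, 0.43 and 0.37 for replicates 1, 2 and 3), so each medium comparison was also made within the 3 same-numbered pairs. The labels do not say whether replicates came from separate differentiations, and p-values measure the spread between these libraries. The libraries also differed in markers of other cells. Of 10 fibroblast and stromal markers, 5 were lower in DMEM plus fatty acids at an edgeR adjusted p under 0.05 (7 with the replicate number as a block in the fit, below called the replicate block) and none was higher. Their summed level was 8274, 5312 and 4311 CPM (TMM-scaled counts for a common library size) in RPMI plus B27 and 728, 1936 and 1797 in DMEM plus fatty acids, so that both extremes fell in the replicate 1 pair, and DCN had a count of 0 in DMEM plus fatty acids replicate 1, which allows up to 0.129 CPM. Of 5 smooth muscle markers 1 was lower (2 with the replicate block), and their summed level was 1555 to 1949 CPM in RPMI plus B27 and 311 to 1125 in DMEM plus fatty acids. The 3 epicardial markers tested summed to 104 to 289.5 CPM and 42.5 to 86.7 CPM, with none called (2 lower with the replicate block). With the replicate block the endothelial marker KDR was higher (edgeR adjusted p = 0.0245) and the hepatic and foregut marker AFP lower (0.0255), and neither was called without it. TEK, the other of the 2 endothelial markers tested, went the opposite way from KDR. It was lower without overlap at a low level, by -2.13 ± 0.51 (SE) on the log2 scale (edgeR adjusted p = 0.0960, and 0.0569 with the replicate block). The 10 cardiomyocyte markers summed to 29605 to 35435 CPM and 22820 to 33130 CPM, with 0 of 10 past the threshold (2 lower with the replicate block), and 2 of 5 pluripotency markers were detected well enough to test, at a summed level of 0.258 to 1.21 CPM. In bulk RNA, fewer cells of a type and less RNA per cell cannot be told apart, and the part of other cell types in the results below was not tested.

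Transcripts of the cytosolic synthetases lay higher in DMEM plus fatty acids, and those of the mitochondrial synthetases lay close to the median of all genes. The fitted log2 fold change, taken as DMEM plus fatty acids relative to RPMI plus B27, was above 0 for 16 of 17 cytosolic genes, with a median of 0.30 and a range from -0.04 to 1.43. It was above 0 for 10 of 16 mitochondrial genes, with a median of 0.05 and a range from -0.30 to 0.59. Over all 16107 genes tested, 8219 were above 0 and the median was 0.01. No member was called, that is, passed an adjusted p of 0.05 in edgeR's quasi-likelihood test, in either direction, against 0.292% of all genes tested that were called higher and 1.36% called in either direction. The count of members with an unadjusted p under 0.05 was 11, all higher, of which 7 were cytosolic, 3 mitochondrial and the last GARS1, beside 7.70% of all genes tested for higher and 9.98% for lower values. With the replicate number as a block SARS1 alone was called, higher, where 1.36% of all genes were called higher and 4.78% in either direction. DESeq2's Wald test called 5 members, all higher (SARS1, WARS1, CARS1, GARS1 and YARS1), beside 2.40% of all genes called higher by that test, which called 1212 genes in either direction.

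**Figure D1:**
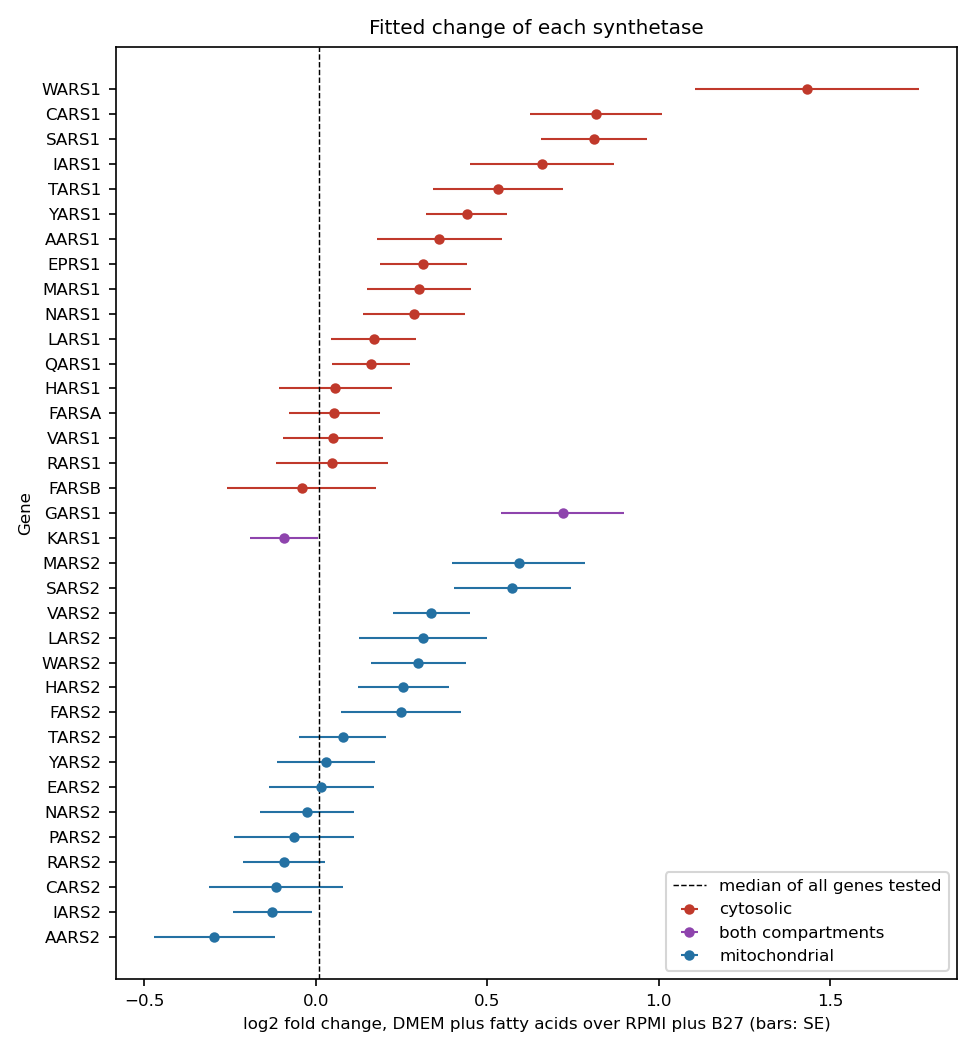
Fitted log2 fold change of each of the 35 synthetases, in DMEM plus fatty acids relative to RPMI plus B27 (horizontal axis; points are the edgeR estimates over 3 against 3 libraries, bars the standard error, and the dashed line the median of all genes tested). The cytosolic genes reach 1.43 with WARS1 and the mitochondrial genes 0.59 with MARS2, and the lowest member is AARS2 at -0.30.

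By ranges, 8 of 17 cytosolic and 7 of 16 mitochondrial genes were higher in all 3 DMEM plus fatty acids libraries than in any RPMI plus B27 library, and none was lower. Of all genes tested, 12.8% lay higher in this way and 12.8% lay lower. Within pairs, 12 of 17 cytosolic genes were higher in each of the 3 pairs and none was lower in each, whereas 7 of 16 mitochondrial genes were higher and 3 lower in each pair. The background for these counts was 25.8% of all genes higher and 24.0% lower in each pair. The cytosolic set thus stood out from the mitochondrial one by size rather than by the number of genes without overlap between media.

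The 2 sets also behaved differently across the pairs. The median log2 ratio of the cytosolic genes was 0.50 in the replicate 1 pair, 0.28 in the replicate 2 pair and 0.13 in the replicate 3 pair. The mitochondrial medians were 0.03, 0.15 and 0.16, so the cytosolic set was above the mitochondrial set in the first 2 pairs and slightly below it in the replicate 3 pair. All genes tested had medians of 0.006, 0.001 and 0.024 in the same pairs. Without DMEM plus fatty acids replicate 1 the fitted cytosolic median fell to 0.18 and the mitochondrial median rose to 0.12, with 16 of 17 and 11 of 16 genes above 0. The mitochondrial median was 0.09 without RPMI plus B27 replicate 3. The lead of the cytosolic set therefore rested in large part on 1 library, which also had the lowest summed fibroblast markers.

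**Figure D2:**
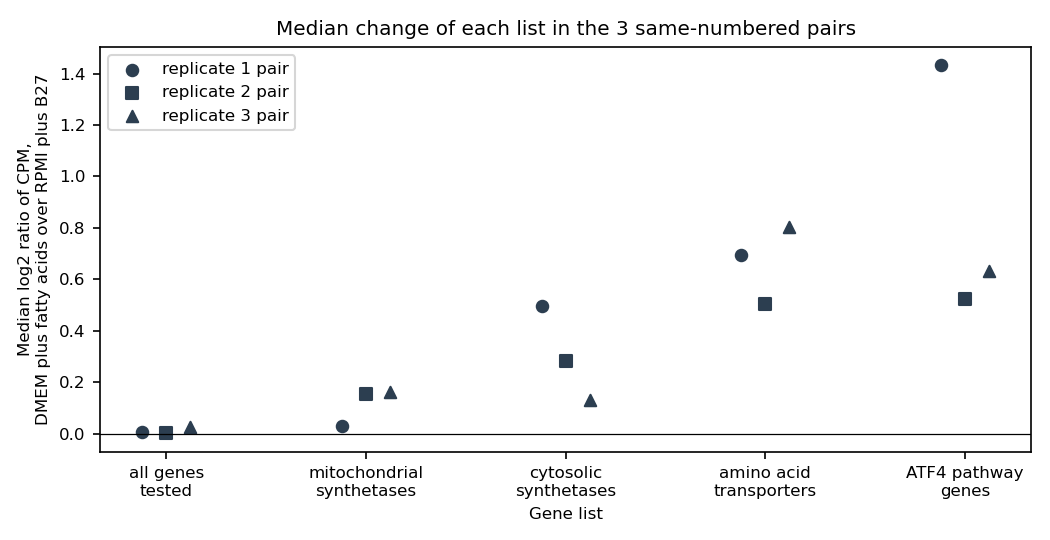
Median log2 ratio of CPM within each same-numbered pair (vertical axis; marker shape gives the pair) for all genes tested, the synthetase sets, and transporters and other genes of the ATF4 pathway. The cytosolic set runs from 0.13 to 0.50 and the mitochondrial set from 0.03 to 0.16, while all genes stay at 0.001 to 0.024.

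As totals, the 17 cytosolic genes summed to 1852, 1924 and 2063 CPM in RPMI plus B27 replicates 1 to 3 and to 2961, 2338 and 2384 CPM in DMEM plus fatty acids. The 16 mitochondrial genes summed to 666, 670 and 697 CPM and to 704, 701 and 713 CPM. Neither total overlapped between media, but the mitochondrial totals were nearly level. The ratio of cytosolic to mitochondrial counts within a library, which no scaling of the library can change, was 2.78, 2.87 and 2.96 in RPMI plus B27 and 4.20, 3.33 and 3.34 in DMEM plus fatty acids. The ratio was thus higher in every DMEM plus fatty acids library, and most so in replicate 1.

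Levels can be set against each other between genes only per transcript length. CPM per kilobase of the principal GENCODE v29 transcript (RPKM) had a median of 31.8 over the cytosolic genes and 10.4 over the mitochondrial genes in RPMI plus B27, and of 39.5 and 11.4 in DMEM plus fatty acids. In RPMI plus B27 the highest RPKM belonged to QARS1 (84.0 ± 6.84, SD, n = 3), the glutaminyl enzyme, followed by NARS1 (69.2 ± 4.48), for asparagine, and KARS1 (60.7 ± 2.74), for lysine. IARS2 was next at 57.6 ± 4.95 and did not differ from KARS1 beyond the spread. It was followed in its set by RARS2 (32.9 ± 3.25), so this mitochondrial isoleucyl enzyme stood among the higher cytosolic levels. In DMEM plus fatty acids SARS1 (94.9 ± 19.0), for serine, QARS1 (94.0 ± 1.45) and NARS1 (84.5 ± 13.6) were highest and did not differ beyond their spread. The lowest RPKM in RPMI plus B27 were those of MARS2 (3.16 ± 0.284) and PARS2 (4.38 ± 0.522), the mitochondrial methionyl and prolyl enzymes, and the lowest cytosolic one was that of CARS1 (8.79 ± 0.13).

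**Figure D3:**
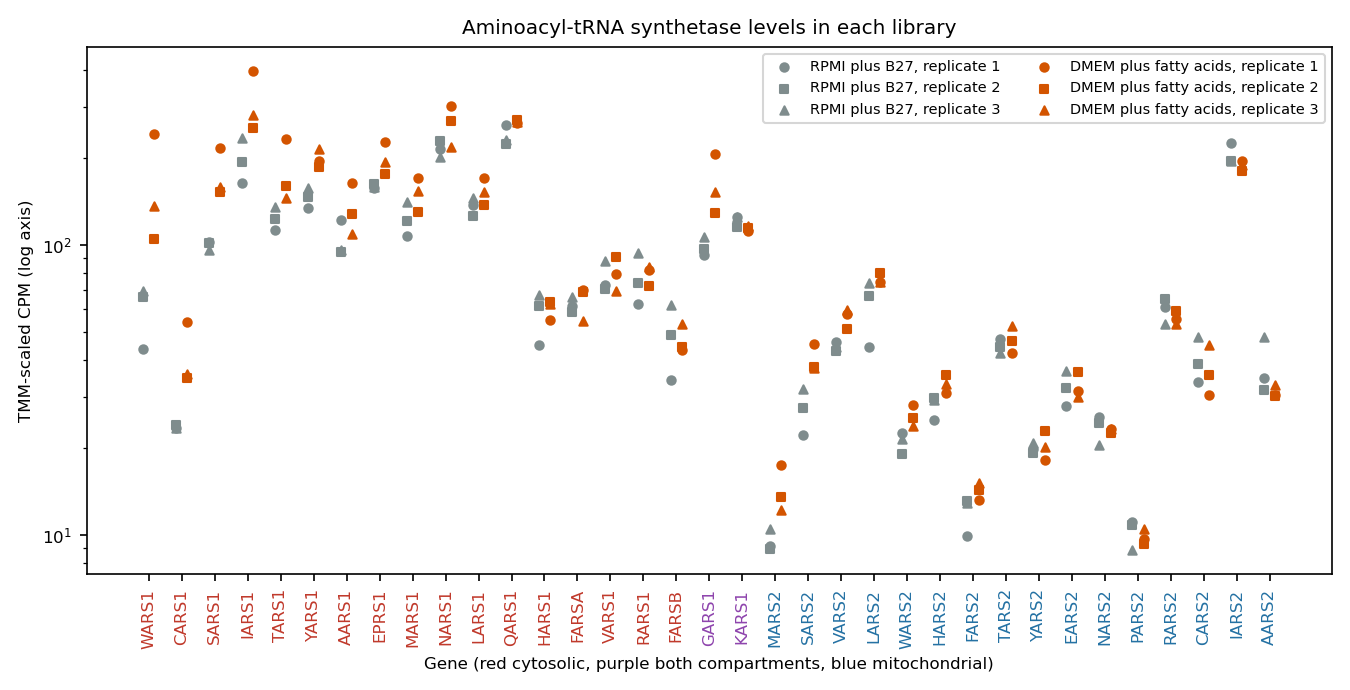
Level of each synthetase in each of the 6 libraries as TMM-scaled CPM (log axis; grey RPMI plus B27, orange DMEM plus fatty acids, marker shape the replicate number, gene names coloured by compartment). WARS1, CARS1, SARS1, IARS1, TARS1 and GARS1 have their highest value in DMEM plus fatty acids replicate 1, and most mitochondrial genes overlap or nearly overlap between media.

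WARS1, the cytosolic tryptophanyl enzyme (GENCODE v29, GRCh38 chromosome 14, 100333790 to 100376327), differed most in size. Its level was 43.8, 66.0 and 69.2 CPM in RPMI plus B27 replicates 1 to 3 and 242, 105 and 136 CPM in DMEM plus fatty acids. All 3 DMEM plus fatty acids libraries were above all 3 of the other medium, and the replicate 1 pair held both the lowest and the highest value. The log2 fold change was 1.43 ± 0.33 (SE, n = 3 per medium; edgeR adjusted p = 0.0866, and 0.0827 with the replicate block). Without DMEM plus fatty acids replicate 1 it was 1.01, and over the 12 other settings the adjusted p ran from 0.00124 to 0.196. WARS1 is also a classical interferon-gamma target, so 14 genes of that response were read beside it. Of the 12 tested, 0 were called and 8 were below 0, and GBP1, an interferon-induced GTPase, was at 3.77, 3.49 and 4.51 CPM in RPMI plus B27 and 0.431, 0.669 and 1.48 CPM in DMEM plus fatty acids (log2 fold change -2.16 ± 0.46; edgeR adjusted p = 0.0754, and 0.0293 with the replicate block). WARS1 and GBP1 thus lay on opposite sides of 0. The list itself was mixed, with 4 of the 12 above 0 and log2 fold changes from -2.16 to 1.38. Without overlap 1 lay higher and 3 lower, beside 12.8% of all genes tested each way. The medians of the list were -0.95, -0.05 and 0.43 in the replicate 1, 2 and 3 pairs, and the response as a whole was not tested. The annotated exons of WARS1 overlap those of WDR25 by 287 bases, and no window of WARS1 held TGATGNAA.

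SARS1, the seryl enzyme (chromosome 1, 109213893 to 109238182), had the smallest p of the members. Its level was 103, 101 and 96.4 CPM in RPMI plus B27 and 216, 153 and 158 CPM in DMEM plus fatty acids. The RPMI plus B27 libraries were tight and all lay below the other medium. The log2 fold change was 0.81 ± 0.16 (n = 3 per medium; edgeR adjusted p = 0.0600), and with the replicate block SARS1 rose with an adjusted p of 0.0295. Its log2 fold change over the 12 other settings ran from 0.63, without DMEM plus fatty acids replicate 1, to 0.91, and its adjusted p from 0.00092 to 0.166, under 0.05 in 4 of them. SARS1 overlaps no other annotated exon, and its windows held no TGATGNAA.

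CARS1, the cysteinyl enzyme (chromosome 11, 3000929 to 3057423), carries the element printed above. Its level was 23.4, 24.0 and 23.4 CPM in RPMI plus B27 and 54.2, 34.8 and 35.8 CPM in DMEM plus fatty acids, again with no overlap and with the highest value in replicate 1. The log2 fold change was 0.82 ± 0.19 (edgeR adjusted p = 0.0944, and 0.0545 with the replicate block). GARS1, the glycyl enzyme of both compartments (chromosome 7, 30594735 to 30634033), was at 92.5, 96.5 and 106 CPM and at 205, 129 and 153 CPM. This was a log2 fold change of 0.72 ± 0.18 without overlap (edgeR adjusted p = 0.107, and 0.0708 with the replicate block). KARS1, the other enzyme that serves both compartments, was at 125, 115 and 125 CPM and at 112, 114 and 116 CPM. Its log2 fold change was -0.09 ± 0.10 (edgeR adjusted p = 0.668), below 0 in 3 of 3 pairs but above 0 when libraries were scaled by total counts. Neither gene was called, and the difference between them was not tested.

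IARS1, the isoleucyl enzyme (chromosome 9, 92210207 to 92293697), was at 164, 193 and 233 CPM in RPMI plus B27 and at 398, 253 and 282 CPM in DMEM plus fatty acids. TARS1, the threonyl enzyme (chromosome 5, 33440696 to 33468091), was at 112, 123 and 135 CPM and at 231, 159.5 and 145 CPM. YARS1, the tyrosyl enzyme (chromosome 1, 32775239 to 32817358), was at 134, 146 and 157 CPM and at 194, 185 and 214 CPM. None of the 3 overlapped between media, and YARS1 was the most even across pairs, at log2 ratios of 0.54, 0.34 and 0.45, whereas IARS1 went from 1.28 in the replicate 1 pair to 0.27 in the replicate 3 pair and TARS1 from 1.04 to 0.10. The log2 fold changes were 0.66 ± 0.21, 0.53 ± 0.19 and 0.44 ± 0.12, with edgeR adjusted p of 0.173, 0.209 and 0.124. Without DMEM plus fatty acids replicate 1 IARS1 and TARS1 fell to 0.44 and 0.30, and YARS1 stayed at 0.45. EPRS1, which joins the glutamyl and prolyl enzymes in a single chain, was at 158, 163 and 158 CPM and at 226, 175 and 193 CPM (0.31 ± 0.13, edgeR adjusted p = 0.260, and 0.20 on the log2 scale without DMEM plus fatty acids replicate 1).

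AARS1, for alanine, had 94.4 to 122 CPM in RPMI plus B27 and 109 to 164 CPM in DMEM plus fatty acids, and MARS1, for methionine, 107 to 141 and 129.8 to 171 CPM. NARS1 had 201 to 229 and 217 to 301 CPM. These 3 genes carry the element and overlapped between media, at log2 fold changes of 0.36 ± 0.18, 0.30 ± 0.15 and 0.29 ± 0.15. QARS1 had 223 to 259 and 262 to 270.3 CPM (0.16 ± 0.11), without overlap but by a narrow gap, and LARS1, for leucine, overlapped at 0.17 ± 0.12. Without DMEM plus fatty acids replicate 1 AARS1 fell to 0.18, NARS1 to 0.17 and LARS1 to 0.082. The 5 others lay near 0, with FARSA and FARSB, the subunits of the phenylalanyl enzyme, at 0.05 ± 0.13 and -0.04 ± 0.22, HARS1 (histidine) at 0.06 ± 0.17, RARS1 (arginine) at 0.05 ± 0.16 and VARS1 (valine) at 0.05 ± 0.15. The signs of these 5 depended on the library left out, and the edgeR adjusted p of the 10 genes in this paragraph and of EPRS1 was at least 0.26.

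The 7 cytosolic and dual genes with the element had log2 fold changes from 0.29 to 0.82 and a median of 0.53, and the 9 with a window but no match ran from -0.09 to 1.43 with a median of 0.06. The 2 ranges overlap, and WARS1 and SARS1, without a match, were among the 3 largest. Over all genes tested the median was 0.02 with a match and 0.01 without. YARS2, the mitochondrial gene with a match, was at 0.03 ± 0.14. Without DMEM plus fatty acids replicate 1 the 7 genes with the element ran from 0.17 (NARS1) to 0.58 (CARS1), with TARS1 in the middle at 0.30. The 9 with a window but no match then ran from -0.08 (KARS1) to 1.01 (WARS1), with HARS1 in the middle at 0.12. The groups thus lay closer together without that library, and the difference between them was not tested.

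Several cytosolic synthetases form a large complex held by the scaffold proteins AIMP1, AIMP2 and EEF1E1. Its 7 synthetase subunits (EPRS1, IARS1, KARS1, LARS1, MARS1, QARS1 and RARS1) had a median of 0.17 on the log2 scale, with 6 above 0, 2 at an unadjusted p under 0.05 and none called. The 11 cytosolic synthetases outside the complex had a median of 0.36, with 10 above 0 and 5 at an unadjusted p under 0.05. Within the replicate 1, 2 and 3 pairs the complex subunits had medians of 0.39, 0.11 and 0.13. Outside the complex these were 0.50, 0.37 and 0.11, so the order turned in the replicate 3 pair. The difference between complex and non-complex genes was not tested. Of the scaffolds none was called. AIMP2 was at 12.2, 20.6 and 25.2 CPM in RPMI plus B27 and at 31.8, 28.5 and 22.6 CPM in DMEM plus fatty acids (0.51 ± 0.27, edgeR adjusted p = 0.380), with its widest gap in the replicate 1 pair. EEF1E1 had a log2 fold change of 0.35 ± 0.23. Without RPMI plus B27 replicate 1 AIMP2 was at 0.27 and EEF1E1 at 0.19.

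Among mitochondrial enzymes, MARS2 and SARS2 had the largest differences. MARS2 (chromosome 2, 197705369 to 197708395) was at 9.16, 8.93 and 10.5 CPM in RPMI plus B27 and at 17.4, 13.5 and 12.2 CPM in DMEM plus fatty acids. SARS2, the mitochondrial seryl enzyme (chromosome 19, 38915266 to 38930763), was at 22.1, 27.5 and 31.8 CPM and at 45.7, 37.8 and 37.6 CPM. Both genes were without overlap and highest in DMEM plus fatty acids replicate 1, with log2 fold changes of 0.59 ± 0.19 and 0.57 ± 0.17 (edgeR adjusted p = 0.180 and 0.154, and 0.138 and 0.119 with the replicate block). SARS2 shares 1492 bases of annotated exon with another gene, so its counts are uncertain. VARS2, for valine (chromosome 6, 30914238 to 30926459), was at 46.2, 43.1 and 44.5 CPM and at 57.9, 51.3 and 59.8 CPM, a smaller but tight difference of 0.34 ± 0.11 (edgeR adjusted p = 0.188).

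LARS2, for leucine, was at 44.5, 66.5 and 74.0 CPM in RPMI plus B27 and at 74.8, 80.1 and 74.8 CPM in DMEM plus fatty acids, where the gap was wide in the replicate 1 pair and nearly closed in the replicate 3 pair (0.31 ± 0.19). WARS2 (tryptophan), HARS2 (histidine) and FARS2 (phenylalanine) also lay without overlap at 0.30 ± 0.14, 0.26 ± 0.13 and 0.25 ± 0.17. Without RPMI plus B27 replicate 1 LARS2 was at 0.12 and FARS2 at 0.13. The other 9 genes overlapped. The signs of 4 of them depended on the library left out and lay close to 0, namely TARS2 (0.08), YARS2 (0.03), EARS2 (0.02) and NARS2 (-0.03). PARS2 was at -0.06 and RARS2 at -0.09, and both were above 0 under total-count scaling. CARS2 was at -0.12, and its sign changed under total-count scaling and with the library left out. IARS2, the most abundant mitochondrial synthetase per length, was at 225, 195 and 194 CPM and at 195, 180.1 and 189 CPM (-0.13 ± 0.11, edgeR adjusted p = 0.609, and -0.05 without RPMI plus B27 replicate 1). AARS2, the alanyl enzyme, was at 34.9, 31.7 and 48.1 CPM and at 30.4, 30.2 and 32.9 CPM, below its partner in 3 of 3 pairs (-0.30 ± 0.18, edgeR adjusted p = 0.426). Without RPMI plus B27 replicate 3, the highest library, AARS2 was at -0.09.

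Dividing the counts of the cytosolic enzyme by those of the mitochondrial enzyme for the same amino acid gives a ratio that is free of library scaling, although not of transcript length, so that only its change between media is compared. Of 15 such ratios 9 had a higher mean in DMEM plus fatty acids, 6 were higher and 3 lower in each of the 3 pairs (the 3 being FARSB over FARS2, histidine and methionine), and 4 had no overlap, all of them higher. The tryptophan ratio (WARS1 over WARS2) was 1.95, 3.47 and 3.23 in RPMI plus B27 and 8.60, 4.13 and 5.72 in DMEM plus fatty acids, a mean log2 difference of 1.07. The cysteine ratio (CARS1 over CARS2) was 0.695, 0.616 and 0.485 and then 1.78, 0.975 and 0.789, a difference of 0.91 that was 0.57 without DMEM plus fatty acids replicate 1. The isoleucine ratio (IARS1 over IARS2) was 0.726, 0.989 and 1.20 and then 2.04, 1.40 and 1.49, a difference of 0.77. These 3 and tyrosine (6.78, 7.62 and 7.55, then 10.7, 8.13 and 10.7, a difference of 0.42) are the ratios whose media did not overlap. Each had an exact two-sided permutation p of 0.1, the smallest that 3 against 3 libraries can give, and 0.375 after Benjamini-Hochberg adjustment over the 15 ratios, so that no ratio could have passed 0.05 in this design, which also leaves the pairing aside.

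Serine went otherwise. SARS1 and SARS2 were both higher, and their ratio was 4.65, 3.69 and 3.03 in RPMI plus B27 and 4.74, 4.04 and 4.21 in DMEM plus fatty acids, a log2 difference of 0.21 with overlap (exact permutation p = 0.4), which was 0.059 without RPMI plus B27 replicate 3 and 0.37 without RPMI plus B27 replicate 1. Methionine and valine ratios had lower means in DMEM plus fatty acids, with differences of -0.28 and -0.29, since MARS2 and VARS2 were further up than MARS1 and VARS1. The alanine ratio was higher in each of the 3 pairs by 0.62 on average, with AARS1 above 0 and AARS2 below it, but overlapped between media (exact permutation p = 0.2), and the difference was 0.39 without RPMI plus B27 replicate 3.

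**Figure D4:**
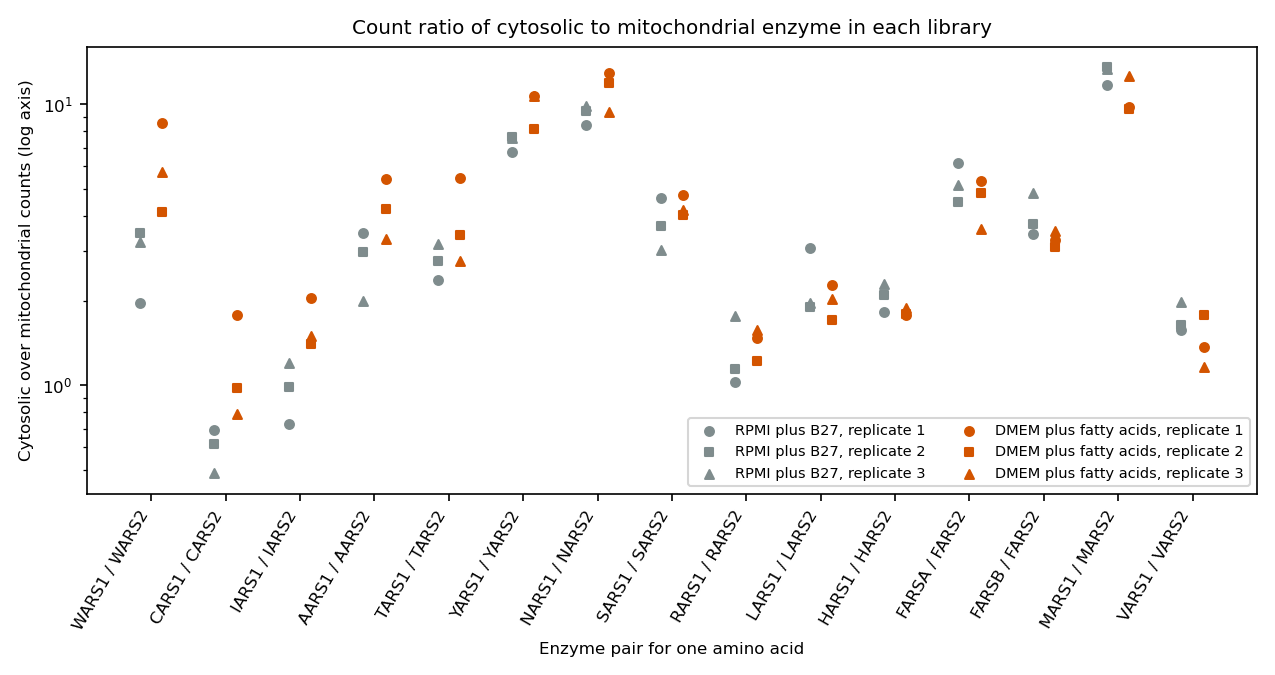
Ratio of cytosolic to mitochondrial counts for each amino acid in each library (log axis; grey RPMI plus B27, orange DMEM plus fatty acids, marker shape the replicate number; FARSA and FARSB are each set against FARS2). The tryptophan, cysteine, isoleucine and tyrosine ratios do not overlap between media, and in the first 3 the highest value is that of DMEM plus fatty acids replicate 1.

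Partners of the synthetases in translation were read from lists of their own. The 7 genes listed for cytosolic translation elongation were elongation factor subunits and EEF2K, a kinase of EEF2 that is not itself an elongation factor. All were below 0, with a median log2 fold change of -0.15, and none was called. EEF1G was at 1117, 944 and 999 CPM in RPMI plus B27 and at 760.2, 846 and 794 CPM in DMEM plus fatty acids (-0.35 ± 0.14, edgeR adjusted p = 0.243), without overlap, and EEF1A1, which carries the loaded tRNA, was at -0.22 ± 0.17, or -0.10 without RPMI plus B27 replicate 1. Of 6 tested genes for proofreading and synthetase-like proteins none was called. TARS3, a second cytosolic threonyl enzyme, was at 74.6, 57.1 and 70.1 CPM and at 49.8, 46.7 and 49.7 CPM (-0.46 ± 0.13, edgeR adjusted p = 0.138, and 0.0708 with the replicate block). TARS3 and TARS1 therefore lay on opposite sides of 0, both without overlap. PTRHD1, of the peptidyl-tRNA hydrolase family, was at 0.41 ± 0.18.

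Mitochondria have no glutaminyl synthetase of their own and convert glutamyl-tRNA with the enzyme made of GATB, GATC and QRSL1, while MTFMT formylates the initiator tRNA. Of these 4 genes none was called, and GATC (25.9 to 28.0 CPM in RPMI plus B27 and 19.2 to 24.0 CPM in DMEM plus fatty acids) and QRSL1 had log2 fold changes of -0.36 ± 0.14 and 0.29 ± 0.14. The subunits of the same enzyme thus lay on opposite sides of 0. Of 15 mitochondrial translation factors and tRNA modifying enzymes 11 were above 0, with a median of 0.17 and none called. MRRF, the ribosome recycling factor, was at 32.2, 30.4 and 31.9 CPM and at 53.9, 46.3 and 38.9 CPM (0.56 ± 0.15, edgeR adjusted p = 0.120, and 0.0714 with the replicate block). GFM1, an elongation factor, was at 76.6, 113 and 112 CPM and at 146, 150.2 and 128 CPM (0.49 ± 0.17, edgeR adjusted p = 0.201).

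The ATF4 pathway was read through 23 factors and targets other than synthetases, of which 22 were tested. Of these 3 rose and none fell (8 rose with the replicate block), beside 0.292% of all genes tested that were called higher and 1.36% with the block, and the median log2 fold change was 0.96. The list was not uniform, with 16 above 0 and 6 below it, over a range from -1.28 to 4.39. Without overlap between media 12 lay higher and 2 lower, beside 12.8% of all genes tested each way. PSAT1, which makes serine from a glycolytic intermediate, rose from 12.9, 14.3 and 23.5 CPM in RPMI plus B27 to 80.6, 43.2 and 81.0 CPM in DMEM plus fatty acids (2.01 ± 0.32, edgeR adjusted p = 0.0405). SHMT2, the mitochondrial enzyme that turns serine into glycine, rose from 77.5, 65.6 and 64.9 CPM to 208, 119 and 174 CPM (1.27 ± 0.21, edgeR adjusted p = 0.0427). NUPR1, a stress-induced chromatin regulator, rose from 0.301, 0.213 and 0.0746 CPM to 7.75, 1.81 and 3.05 CPM (4.39 ± 0.73, edgeR adjusted p = 0.0427). These genes were higher in all 3 pairs, but with 1 library left out the calls of SHMT2 and NUPR1 were lost in each of 6 fits (edgeR adjusted p from 0.0575 to 0.134) and that of PSAT1 in 5 of 6, the exception being RPMI plus B27 replicate 3. SHMT2 also missed the threshold with at least 10 counts required in every library (0.0524). TRIB3, a pseudokinase that restrains ATF4, was at 2.49 ± 0.45 (edgeR adjusted p = 0.0520, and 0.0274 with the replicate block). The ATF4 transcript itself was at -0.04 ± 0.23 (edgeR adjusted p = 0.945). Of 12 eIF2alpha kinase, phosphatase and exchange factor genes, which act upstream of ATF4 translation, none was called and 9 were below 0, EIF2B2 lying at 0.34 ± 0.13 and EIF2AK2 at -0.30 ± 0.12.

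Of 10 amino acid transporters of the pathway 2 rose and none fell (4 rose with the replicate block), against the same 0.292% and 1.36% of all genes, and their median on the log2 scale was 0.77. SLC6A9, a glycine transporter, rose from 6.52, 4.04 and 4.85 CPM in RPMI plus B27 to 50.4, 19.2 and 25.2 CPM in DMEM plus fatty acids (2.62 ± 0.39, edgeR adjusted p = 0.0397). SLC7A3, a transporter of cationic amino acids, rose from 0.414, 0.298 and 0.559 CPM to 2.33, 1.77 and 3.97 CPM (2.65 ± 0.44, edgeR adjusted p = 0.0427). Neither call held with any 1 of the 6 libraries left out (edgeR adjusted p from 0.0606 to 0.134). SLC7A11, which imports cystine, was at 3.15 ± 0.64 (edgeR adjusted p = 0.0676, and 0.00833 with the replicate block), and SLC1A4, a neutral amino acid transporter, was at 0.74 ± 0.39 (0.372, and 0.0394 with the replicate block), and at 0.36 without DMEM plus fatty acids replicate 3 and 0.47 without RPMI plus B27 replicate 2. By median, the cytosolic synthetases at 0.30 thus lay between these genes and the median of all genes, in the replicate 1 pair at 0.50 against 1.43 for the ATF4 pathway genes and in the replicate 2 pair at 0.28 against 0.52. In the replicate 3 pair the medians were 0.13 and 0.63. The transporter medians were 0.70, 0.51 and 0.80 in the replicate 1, 2 and 3 pairs, highest in the pair where the cytosolic median was lowest.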

How the data were processed

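Per the labels' protocols, RNA was purified on columns with DNase treatment and sequenced with an mRNA library kit that keeps strand. Per the submitters' processing notes, STAR, HTSeq and hg38 were used; versions, annotation and strand setting are not given in the sources used here. The deposited values are raw gene counts, a file for each library, not normalized or pooled by the authors. The 5 summary rows of each file were left out.

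The test was that of edgeR 4.0.16 (R 4.3.3; filterByExpr with minimum count 10 and minimum total 15, TMM scaling, quasi-likelihood test over all 6 libraries without a block, Benjamini-Hochberg over 16107 genes, threshold 0.05). The script was tested on simulated data. Standard errors follow from the F statistic. CPM are TMM-scaled, and ratios within pairs add 0.25 CPM. Alternatives were other scalings, other filters, DESeq2 1.42.0, a replicate block and leaving out each library. Deviations from the medium mean correlated at 0.31 to 0.43 between same-numbered libraries and at -0.24 to -0.14 between others, so the numbers in the titles were treated as pairs.

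Exons of 14 members overlap another gene in GENCODE v29 (GRCh38), 8 by over 100 bases (HARS1 and HARS2, WARS1, YARS1, CARS1, AARS2, SARS2, WARS2), and reads there may have been set aside or misassigned. Promoter windows were from RefSeq (GRCh38.p14). The 35 members and all lists were chosen with earlier results of these data known. All members are named. From each pathway list up to 4 genes with the smallest p among called ones (with or without the block), otherwise the 2 with the smallest p, are named, and ATF4 was added after its value was seen.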

Additional observations from a re-analysis of the deposited data

How the results depend on the processing

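Of 16107 genes tested, 219 were called; the count was 539 with no filter on low counts, 119 with at least 10 counts in every library, 770 with the replicate block, 1212 with DESeq2's Wald test, and 3 to 131 when any 1 of the 6 libraries was left out. Cytosolic synthetases called went from 0 to 1 with total-count scaling, 2 without the filter, 1 with the replicate block and 4 with DESeq2, and stayed at 0 with each library left out; no mitochondrial synthetase was called under any of the 12 settings. The replicate block changed the call of no other member than SARS1. Total-count scaling moved the median of all genes from 0.01 to 0.12, the mitochondrial median to 0.17 and the cytosolic one to 0.41, and put FARSB (0.071), KARS1 (0.017), CARS2 (0.00091), NARS2 (0.083), PARS2 (0.048) and RARS2 (0.014) above 0, all still below the median of all genes. With each library left out, the cytosolic median ran from 0.18 to 0.39 and the mitochondrial median from 0.041 to 0.12. Small changes then changed sign: FARSA ran from -0.012 to 0.17, FARSB from -0.24 to 0.18, HARS1 from -0.095 to 0.18, RARS1 from -0.083 to 0.22, VARS1 from -0.053 to 0.16, CARS2 from -0.28 to 0.036, EARS2 from -0.080 to 0.12, NARS2 from -0.11 to 0.038, TARS2 from -0.0022 to 0.15 and YARS2 from -0.057 to 0.10, as did the log2 ratios for leucine (-0.30 to 0.047) and arginine (-0.0020 to 0.39). The cause of these changes was not tested. At the lowest member counts, 210 and above, counting error can be as large as the spread between libraries.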
